A study of Mus musculus with 36 samples.

Results

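The genes described here belong to families of ion channels and transporters, some members of which set the excitability of skeletal muscle and start its contraction. They were found by symbol among the annotated probe sets of a mouse microarray: every probe set assigned to 1 gene whose symbol starts with Kcn (potassium channels), Cacna, Cacnb or Cacng (calcium channels), Clcn (chloride channels and transporters) or Ryr (ryanodine receptors), or with Scn and a digit (sodium channels). The rule found 69 of the 8251 genes with such a probe set, through 89 probe sets. For a gene with several probe sets the brightest on average stood for it, and the 37 genes with a mean deposited signal of at least 300 are described. These are 23 of 42 potassium channel genes, 6 of 12 calcium channel genes, all 6 chloride channel and transporter genes, 2 of 3 ryanodine receptor genes and 0 of 6 sodium channel genes. Just inside the limit were Kcna3 with a mean of 305 and Kcnab2 with 318, and just outside it Kcnj6 with 296 and Kcnc1 with 274. No probe set with Scn4a or Cacnb1 as its single symbol was among the members, and these 2 genes were not analysed here.

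The study is titled as a mouse model of nemaline myopathy, a muscle disease with rod-shaped inclusions in the fibres. It compared mice carrying a transgene for alpha tropomyosin slow, a thin filament protein of slow fibres, with wild-type mice, in snap-frozen diaphragm and 4 hindlimb muscles (tibialis anterior, extensor digitorum longus, plantaris and gastrocnemius) at 7 and 10 months of age. Each of the 36 arrays received labelled RNA pooled from 3 to 5 mice, with 4 arrays per genotype in diaphragm, gastrocnemius and tibialis anterior and 3 in extensor digitorum longus and plantaris. The sources used here do not give the promoter that drives the transgene, the form of the protein it encodes or the mouse strain. Nothing in the labels says that the pools of a group came from separate mice, so each p-value reflects only how far these arrays scatter, and that scatter may be technical. Nor do they say whether the 5 muscles of a genotype, age and replicate number came from the same mice. The tests averaged over muscles, and the counts of arrays by genotype, treat the arrays as separate.

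In skeletal muscle an action potential spreads along the surface membrane and into the transverse tubules, where the voltage sensor, a calcium channel of the dihydropyridine receptor family, opens the ryanodine receptor of the calcium store. Chloride channels carry much of the resting conductance and keep the membrane from firing repeatedly, and potassium channels repolarise it and hold its resting potential. Mutations of the genes for the ryanodine receptor, the voltage sensor and the muscle chloride channel are known causes of malignant hyperthermia and core myopathy, periodic paralysis and myotonia.

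The deposited values are signal intensities scaled alike on all arrays, and their trimmed means lay between 1499.59 and 1499.7. Between 57.4 and 68.4% of probe sets reached 300 on an array. Tpm3, the mouse gene for slow alpha tropomyosin, averaged 42482 ± 25802 in transgenic and 34989 ± 22236 in wild-type muscle (SD, n = 18 each; adjusted p = 0.289), and whether its probe set reads the transgene is not known. The ratio of 3' to 5' signal of Gapdh was above 3 on 2 arrays. Hepatocyte markers stood apart on the diaphragm arrays: the mean log2 signal of the 13 markers measured, of 16 listed, was 9.86, 14.37, 9.79 and 11.31 on the transgenic diaphragm arrays and 14.86, 14.35, 12.49 and 14.53 on the wild-type diaphragm arrays, against 8.03 to 8.87 on the 28 limb arrays. In each such list of 4 values, here and later, the arrays stand in the order of 7 months replicates 1 and 2, then 10 months replicates 1 and 2. The 13 markers together held 0.0779 to 1.59% of the summed signal of a transgenic and 0.616 to 2.03% of a wild-type diaphragm array, against 0.0094 to 0.0367% of a limb array. Values on other sets of the diaphragm arrays stand with the 11 channel genes called in diaphragm, and counts on them with the partner genes.

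Among the genes of excitation and contraction coupling, Ryr1, the calcium release channel of the store, had a mean signal over 36 arrays of 59199 (from 21579 to 89384). Cacna1s, the pore and voltage sensor of the tubular calcium channel, averaged 16367 (from 6819 to 25627). Cacng1, its gamma subunit in skeletal muscle, averaged 8480 (from 1919 to 16744), and Cacna2d1, its alpha2delta subunit, 1713 (from 265 to 4021). Signals of different probe sets have no common scale, so levels are compared only within a gene. The other calcium channel genes were Cacna1c, the pore of the cardiac and smooth muscle channel, with 542 (from 185 to 1055), Cacnb2, a cytoplasmic beta subunit best known from heart, with 625 (from 138 to 1111), and Cacna1b, the pore of a neuronal channel, with 947 (from 430.2 to 1667). Ryr3, a second ryanodine receptor, averaged 722 (from 423 to 1414).

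Of the chloride genes, Clcn1, the muscle chloride channel of the surface membrane, averaged 8446 (from 2425 to 14747). Clcn2, a widely expressed plasma membrane channel, averaged 333 (from 69.6 to 854). The exchangers of intracellular membranes were Clcn3 with 5481 (from 3428 to 7403), Clcn4 with 2214 (from 1364 to 2996), Clcn5 with 373 (from 44.2 to 743) and the lysosomal Clcn7 with 1739 (from 1096 to 3374). Kcnq1, Kcnj9 and Clcn5 were read by probe sets whose names end in r_at, the manufacturer's mark for sets that did not meet all its selection rules. Kcnab2 was read by one ending in f_at, and Clcn7 and Cacna1c by ones ending in s_at, marks for sets that may also read related transcripts. The second probe sets of Kcnq1 (mean 140.3), Clcn5 (126.6), Clcn1 (136.1), Kcna5 (62.5) and Ryr3 (165.3) lay below 300 and were not tested.

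The inward rectifiers, which hold the resting potential, were Kcnj12 with a mean of 776 (from 251 to 1634) and Kcnj4 with 708 (from 369 to 1307). Kcnj11 with 1395 (from 279 to 4201) and Kcnj8 with 779 (from 408 to 1293) form pores of ATP-sensitive channels, and Kcnj9 with 914 (from 53 to 3412) is a subunit of channels gated by G proteins. The calcium-activated channels were Kcnma1, of large conductance, with 1858 (from 665 to 4480), Kcnn1, of small conductance, with 1252 (from 260.1 to 2241), and Kcnn4, of intermediate conductance, with 584 (from 141 to 1275). The voltage-gated delayed rectifiers of the Shaker family were Kcna7 with 1550 (from 491 to 3302), Kcna5 with 956 (from 464 to 1516), Kcna2 with 423 (from 141 to 792) and Kcna3 with 305 (from 88.7 to 767).

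The transient outward channels, which inactivate quickly, were Kcnd3 with 995 (from 207 to 3313) and Kcnd1 with 389 (from 55.5 to 918). Kcnq1 with 2073 (from 1093 to 5383) and Kcnh2 with 726 (from 378 to 1662) are best known for repolarising the heart. Kcns2, a subunit that forms no channel alone, averaged 384 (from 82.7 to 763), and the auxiliary beta subunits Kcnab1 and Kcnab2 averaged 691 (from 58 to 2915) and 318 (from 23.5 to 964). The background channels with 2 pore domains were Kcnk4 with 1073 (from 654 to 2153), Kcnk7 with 882 (from 224 to 2113), Kcnk2 with 602 (from 332 to 1070) and Kcnk1 with 477 (from 108 to 1089). All 37 reached 300 on at least 6 arrays and were tested, as were 7 of the 32 genes with lower means, which are counted only here.

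The first question was whether channel genes differ between muscles. Diaphragm carried less signal than the 4 limb muscles for 11 of the 37 genes and more for 0 of 37. The 11 were the release channel Ryr1, the voltage sensor Cacna1s and its subunit Cacng1, the chloride genes Clcn1 and Clcn3, and the potassium channel genes Kcnab1, Kcnma1, Kcnj12, Kcna7, Kcnd1 and Kcnd3. In the same comparison 25.2% of the 9326 probe sets tested passed an adjusted p of 0.05 in limma, 12.7% lower and 12.4% higher in diaphragm. The median of the 37 log2 differences was -0.20, with 30 below 0, against -0.05 over all probe sets, of which 56.2% were below 0. Of the 37 genes 33 had a mean of at least 300 in both diaphragm and limb muscles, and 9 of the 11 are among these. Kcnab1, Kcnd1, Kcnab2 and Kcna3 reached it only in limb muscles, so they entered the description through the limb arrays. The calls of Kcnab1 and Kcnd1 are given without weight on their direction. All 4 genes are also among the 30 below 0 and in the median, so that count and the median share this limit. Bulk RNA cannot tell fewer muscle fibres in a sample from less RNA of a gene in each fibre.

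Cacng1 had a median of 2873 on the 8 diaphragm arrays (lowest 1919, highest 4791), against 9786 on the 28 limb arrays (lowest 5757, highest 16744). Within diaphragm it had 4791, 1926, 3966 and 3370 on the transgenic and 1919, 2542, 3204 and 1998 on the wild-type arrays. Every diaphragm array lay below every limb array, and the difference was -1.67 ± 0.14 on the log2 scale (estimate ± SE, adjusted p = 2.77e-10). Cacng1 was the only 1 of the 37 without overlap in this direction, which held for 0.6% of all probe sets, and 0 of 37 lay above without overlap, against 1.03%.

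Ryr1 had a median of 41955 on the 8 diaphragm arrays (lowest 21579, highest 51591), against 64899 on the 28 limb arrays (lowest 45327, highest 89384). Its diaphragm signals were 45604, 40893, 51591 and 47964 on the transgenic arrays and 21579, 40103, 43018 and 28946 on the wild-type arrays, so that the 3 highest values were transgenic and the 2 lowest wild type. The muscles overlapped, with 3 diaphragm arrays above the lowest limb array, and the difference was -0.70 ± 0.12 (adjusted p = 4.46e-05).

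Cacna1s had a median of 9890 on the 8 diaphragm arrays (lowest 6819, highest 15346), against 17322 on the 28 limb arrays (lowest 11442, highest 25627). Its diaphragm signals were 12901, 9659, 15346 and 13512 on the transgenic and 7308, 9907, 9873 and 6819 on the wild-type arrays. Here too 3 diaphragm arrays, all transgenic, lay above the lowest limb array, and the difference was -0.75 ± 0.12 (adjusted p = 2.59e-05).

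Clcn1 had a median of 4168 on the 8 diaphragm arrays (lowest 2425, highest 7698), against 10301 on the 28 limb arrays (lowest 4668, highest 14747). Its diaphragm signals were 4482, 3855, 3754 and 7698 on the transgenic and 2425, 4569, 5837 and 3141 on the wild-type arrays, and 2 of these 8 lay above the lowest limb array. The difference was -1.08 ± 0.18 (adjusted p = 3.04e-05).

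**Figure D1:**
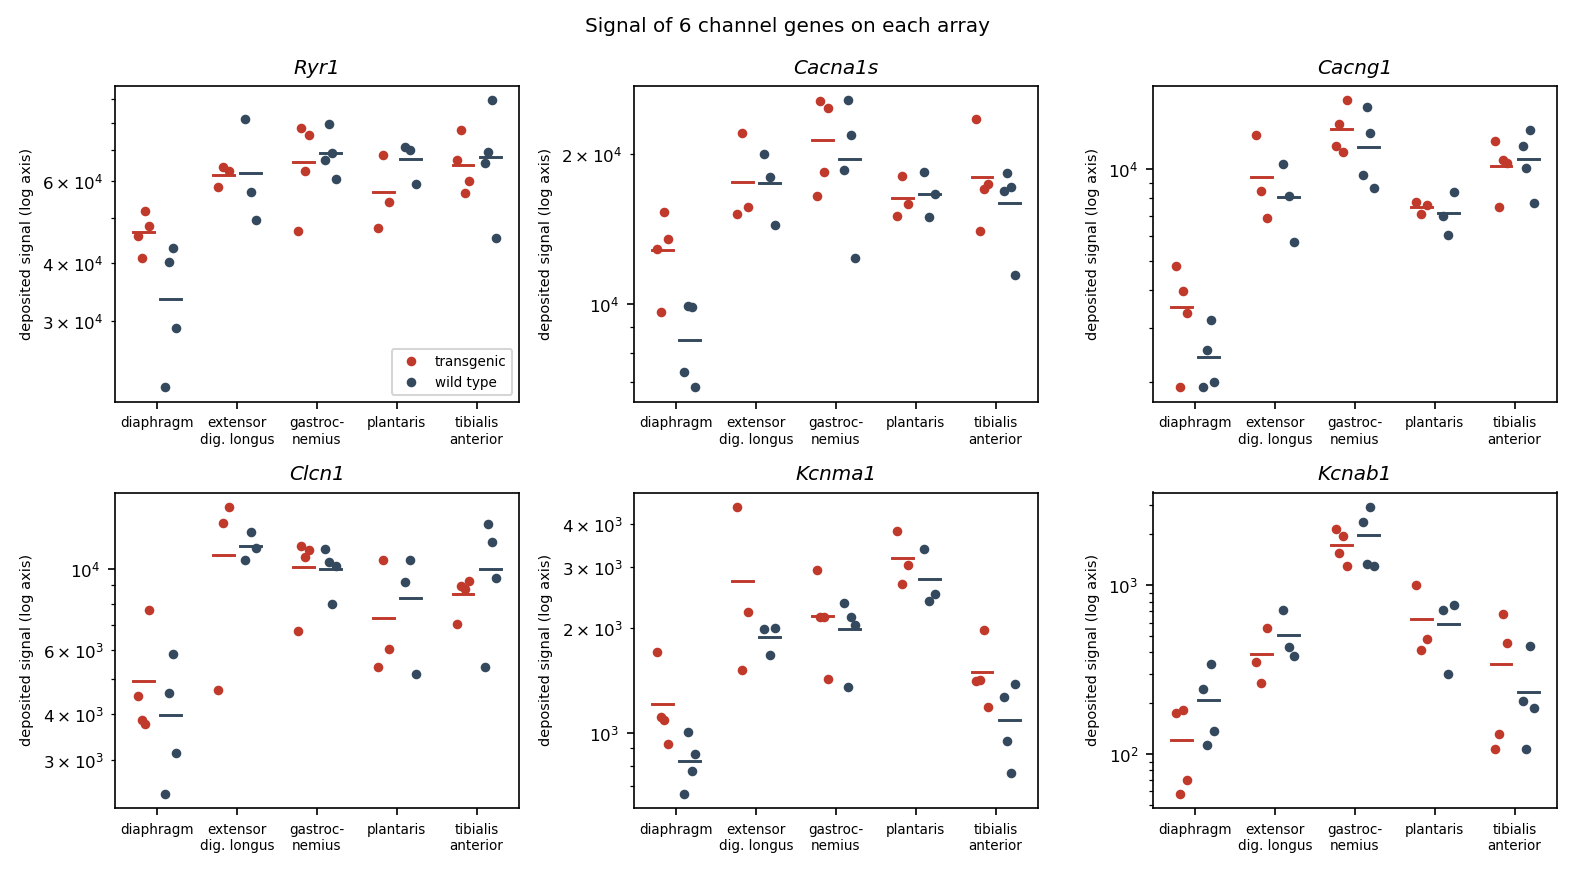
Deposited signal of 6 channel genes on each of 36 arrays by muscle, with transgenic arrays left and wild-type arrays right in each muscle; points are arrays, bars are group means, and each vertical axis is logarithmic. Every diaphragm array of Cacng1 lies below every limb array, and every gastrocnemius array of Kcnab1 lies above every array of the other muscles.

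The promoters of Cacna1s, Ryr1 and Clcn1 are shown because these 3 genes of coupling and membrane excitability were all lower in diaphragm and RefSeq gives a single start for each. The 220 bases run from 250 to 31 bases before the RefSeq start, 5' to 3' on the gene's strand in build GRCm38.p6, as chr1:136052561-136052780 on the plus strand, chr7:29125182-29125401 on the minus strand and chr6:42286435-42286654 on the plus strand. Capitals mark matches on either strand to CANNTG (the E-box that myogenic factors bind), CATTCC (the M-CAT element) or TATAAA (the TATA box).
Cacna1s: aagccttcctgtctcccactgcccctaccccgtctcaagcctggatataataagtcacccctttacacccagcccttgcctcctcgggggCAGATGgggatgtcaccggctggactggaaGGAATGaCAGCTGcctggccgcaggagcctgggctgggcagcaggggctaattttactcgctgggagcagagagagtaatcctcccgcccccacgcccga
Ryr1: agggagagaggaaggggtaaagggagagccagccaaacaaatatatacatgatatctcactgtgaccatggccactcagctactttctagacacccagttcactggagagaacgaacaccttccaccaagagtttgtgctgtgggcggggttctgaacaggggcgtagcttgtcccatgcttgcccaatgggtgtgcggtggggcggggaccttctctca
Clcn1: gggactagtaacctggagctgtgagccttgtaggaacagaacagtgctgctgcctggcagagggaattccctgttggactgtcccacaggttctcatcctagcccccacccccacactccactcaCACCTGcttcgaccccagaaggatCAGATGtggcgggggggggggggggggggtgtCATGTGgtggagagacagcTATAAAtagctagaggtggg
The Cacna1s window held 2 E-boxes and 1 M-CAT element, the Clcn1 window 3 E-boxes and 1 TATA box, and the Ryr1 window 0 matches. Of all 32851 RefSeq promoter windows of this length 62.1% held an E-box, 11.4% an M-CAT element and 9.95% a TATA box. The annotated Clcn1 gene begins further upstream than this start. RefSeq promoters matched 31 of the 37 genes, with 3 starts for Kcnab1. Among the 12 windows of the 9 matched genes lower in diaphragm, 9 held an E-box, 2 an M-CAT element and 1 a TATA box. A match is a match of letters and says nothing of binding.

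The auxiliary subunit Kcnab1 had a median of 157 on the 8 diaphragm arrays (lowest 58, highest 344), against 519 on the 28 limb arrays (lowest 108, highest 2915). It differed by -1.32 ± 0.19 (adjusted p = 3.78e-06), and the muscles overlapped because tibialis anterior, extensor digitorum longus and plantaris also had arrays at the diaphragm level. A second Kcnab1 probe set gave -0.43 and did not pass (adjusted p = 0.07). The calcium-activated channel Kcnma1 had a median of 967 on the 8 diaphragm arrays (lowest 665, highest 1709), against 2028 on the 28 limb arrays (lowest 763, highest 4480). It differed by -0.92 ± 0.15 (adjusted p = 3.46e-05), with 7 of the 8 diaphragm arrays inside the limb range, whose low end is tibialis anterior.

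The inward rectifier Kcnj12 had a median of 402 on the 8 diaphragm arrays (lowest 251, highest 697), against 876 on the 28 limb arrays (lowest 397, highest 1634). It differed by -0.78 ± 0.16 (adjusted p = 0.000347), and 4 diaphragm arrays lay above the lowest limb array. Clcn3, an exchanger of endosomes, had a median of 4475 on the 8 diaphragm arrays (lowest 3428, highest 5222), against 5918 on the 28 limb arrays (lowest 3996, highest 7403). Its difference was -0.41 ± 0.09 (adjusted p = 0.000545), the smallest of the 11, and its 3 other probe sets had -0.18, -0.12 and -0.16 and did not pass.

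Kcna7, a voltage-gated channel with high expression in muscle, had a median of 870.5 on the 8 diaphragm arrays (lowest 779, highest 2000), against 1678 on the 28 limb arrays (lowest 491, highest 3302). It differed by -0.60 ± 0.18 (adjusted p = 0.0134), and all 8 diaphragm arrays lay inside the limb range. Kcnd3 had a median of 627 on the 8 diaphragm arrays (lowest 207, highest 1139), against 1007 on the 28 limb arrays (lowest 248, highest 3313) and differed by -0.68 ± 0.21 (adjusted p = 0.014). Its diaphragm signals were 1139, 876, 596 and 659 on the transgenic and 207, 405, 312 and 958 on the wild-type arrays, so the low values were mostly wild type. Kcnd1, a relative of Kcnd3, had a median of 108 on the 8 diaphragm arrays (lowest 70.2, highest 496), against 434 on the 28 limb arrays (lowest 55.5, highest 918) and differed by -0.74 ± 0.23 (adjusted p = 0.0156). These 3 are the calls that a single array could end: Kcna7 had an adjusted p of 0.0664 without the 7-month replicate 2 of transgenic diaphragm, Kcnd3 0.0653 without the 7-month replicate 1 of wild-type diaphragm, and Kcnd1 0.0721, 0.0509 and 0.0537 without the 7-month replicate 2 of transgenic diaphragm, the 10-month replicate 2 of wild-type diaphragm or the 7-month replicate 2 of wild-type diaphragm.

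**Figure D2:**
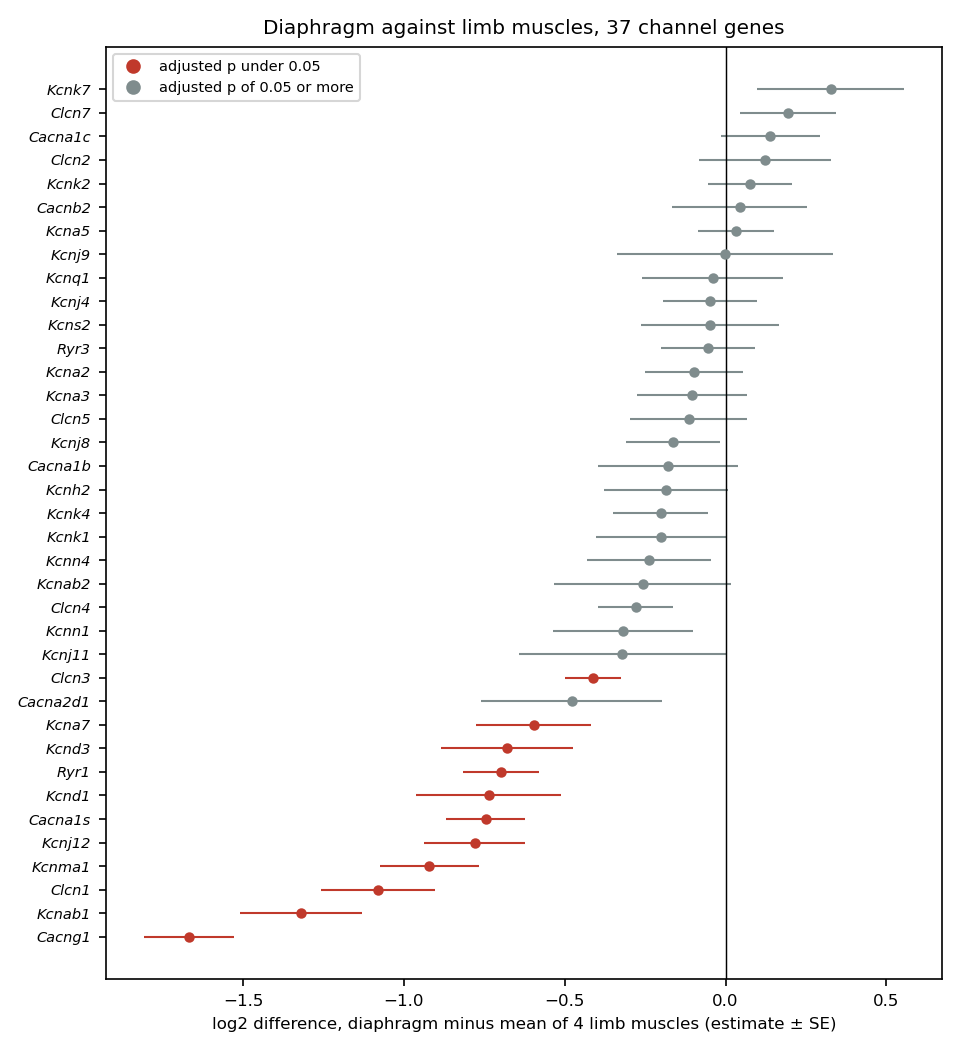
Log2 difference of diaphragm minus the mean of the 4 limb muscles for the 37 channel genes, with points as limma estimates and bars as SE; red points have an adjusted p under 0.05. The 11 red genes all lie below 0, from -1.67 for Cacng1 to -0.41 for Clcn3.

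The size of these differences went with the set of diaphragm arrays used. With wild-type arrays only, whose diaphragm arrays all had hepatocyte means above 12, 10 of the 37 genes were lower, all 11 but Kcnd1, against 20.8% of all probe sets past the threshold in either direction. With transgenic arrays only, Cacng1, Clcn1, Kcnab1, Kcnj12 and Kcnma1 were lower, 5 of 37 against 8.16%. With the 3 transgenic diaphragm arrays whose hepatocyte mean was below 12, Cacng1 and Kcnab1 passed, 2 of 37 against 3.94%. With the hepatocyte mean as a covariate 0 of 37 passed, against 0.622% of all probe sets, and the estimates of the 11 genes lay between -0.86 for Kcnd3 and 0.23 for Kcna7. This mean was at most 8.87 on limb arrays and at least 9.79 on diaphragm arrays, so the fit could hardly separate it from muscle. SEs were wider with the covariate, 0.33 against 0.14 for Cacng1 and 0.53 against 0.18 for Clcn1. The count of 0 therefore does not show that the differences are absent. The part of liver RNA in the 11 differences was not tested beyond these sets.

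Gene by gene, the estimate for Cacng1 was -1.49 ± 0.20 in transgenic arrays (adjusted p = 5.75e-06) and -1.85 ± 0.20 in wild-type arrays (adjusted p = 3.5e-08), and -1.18 ± 0.20 in transgenic arrays without the one of high hepatocyte signal. The voltage sensor Cacna1s had -0.49 ± 0.17 in transgenic and -1.01 ± 0.17 in wild-type arrays, and the release channel Ryr1 -0.39 ± 0.17 in transgenic and -1 ± 0.17 in wild-type arrays, both over 1.5 times smaller in transgenic arrays than in both genotypes together. Clcn3 had -0.22 ± 0.12 in transgenic and -0.61 ± 0.12 in wild-type arrays, and Kcnd3 -0.04 ± 0.29 in transgenic and -1.32 ± 0.29 in wild-type arrays, so that the Kcnd3 call rests on the wild-type arrays. The test of a genotype effect that differs between the 5 muscles, given below, called 0 of the 37, and these pairs of estimates were not compared beyond it.

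Clcn1 had -0.85 ± 0.25 in transgenic and -1.30 ± 0.25 in wild-type arrays, Kcna7 -0.48 ± 0.25 in transgenic and -0.71 ± 0.25 in wild-type arrays, and Kcnd1 -0.65 ± 0.32 in transgenic and -0.82 ± 0.32 in wild-type arrays. Kcnma1 had -0.83 ± 0.22 in transgenic and -1.01 ± 0.22 in wild-type arrays, and Kcnj12 -0.75 ± 0.22 in transgenic and -0.81 ± 0.22 in wild-type arrays. Kcnab1 alone of the 11 had the larger estimate in transgenic arrays, -1.51 ± 0.27 against -1.14 ± 0.27 in wild-type arrays.

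Other marker lists moved in the same comparison. Slow fibre markers were higher in diaphragm for 8 of 9 and lower for 0, with a median of 0.87, fast fibre markers lower for 9 of 11 and higher for 0, with a median of -0.66, and macrophage markers higher for 6 of 7. The summed signal of the slow fibre list ran from 166290 to 492035 on diaphragm arrays and from 15392 to 554221 on limb arrays. Its median was 344202 on transgenic and 286265 on wild-type diaphragm arrays. In the same order it was higher in plantaris (536014 and 391021) and gastrocnemius (354016 and 302214). It was lower in extensor digitorum longus (276419.5 and 168243) and tibialis anterior (62560 and 19433). The fast fibre list ran from 322024 to 829934 on diaphragm arrays and from 593503 to 1273128 on limb arrays. The macrophage list ran from 14520 to 21844 on diaphragm arrays and from 5057 to 12828 on limb arrays. Hepatocyte markers were higher for 13 of 13, with a median of 4.53, adipocyte markers for 3 of 5 and erythroid markers for 2 of 3. Nerve and Schwann cell markers, from cells that also express potassium channels, were lower for 1 of 6 and higher for 0, and smooth muscle markers, from cells rich in Kcnma1 and Cacna1c, higher for 1 of 7. Denervation and immature fibre markers were lower for 4 of 8 and higher for 0, with a median of -0.47. The part of fibre type, denervation, macrophages, nerve or vessels in the channel differences was not tested.

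**Figure D3:**
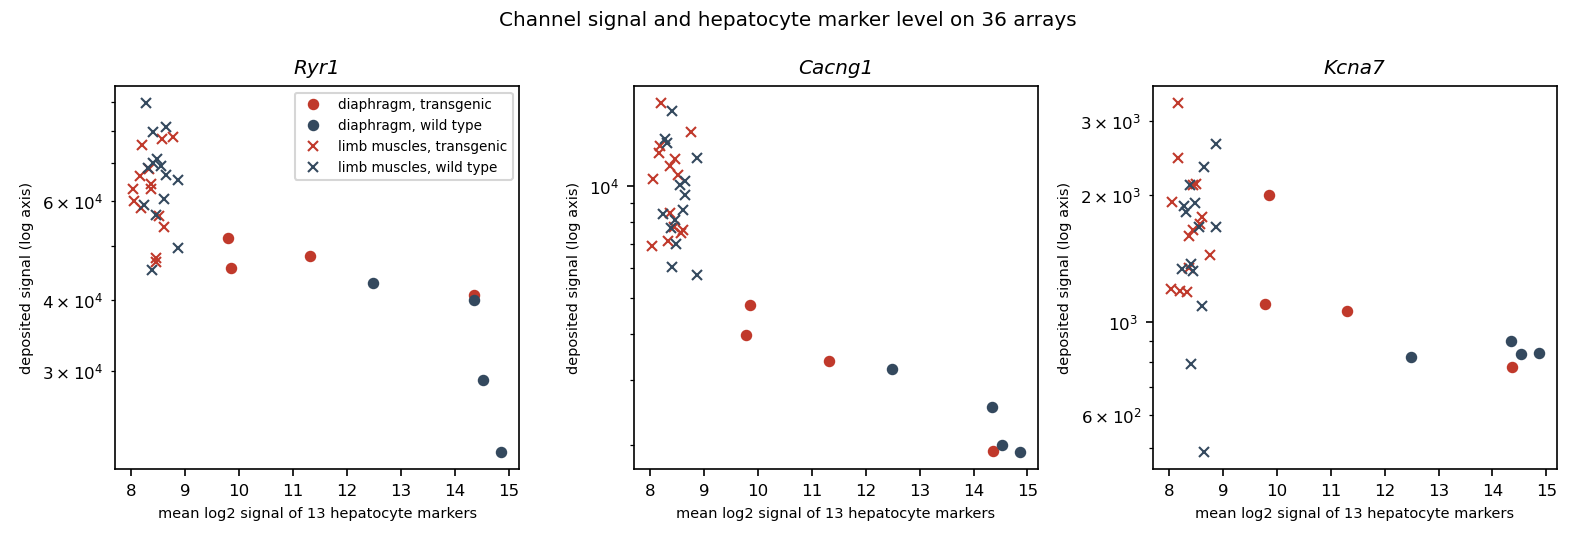
Deposited signal of Ryr1, Cacng1 and Kcna7 on logarithmic axes against the mean log2 signal of 13 hepatocyte markers on 36 arrays; circles are diaphragm arrays, crosses limb arrays, red transgenic and dark blue wild type. The limb arrays lie between 8.03 and 8.87 on the horizontal axis, and the 5 diaphragm arrays above 12 include all 4 wild-type ones.

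The replicate number in the labels goes with the state of the deposited experiment records: the 20 replicate 1 arrays have a filled record and the 16 replicate 2 arrays an empty one, so the 2 sets were also fitted apart. Of the 11 genes, Cacng1 had -1.52 in the replicate 1 set and -1.84 in the replicate 2 set, Kcnab1 -1.22 and -1.31, Clcn1 -1.01 and -1.25, Kcnma1 -1.05 and -0.73, Ryr1 -0.69 and -0.76, and Cacna1s -0.66 and -0.88. Kcnj12 had -0.72 and -0.88, Kcnd1 -0.74 and -0.78, Kcna7 -0.61 and -0.50, Kcnd3 -0.93 and -0.33, and Clcn3 -0.32 and -0.48. All 22 estimates were below 0. In the replicate 1 set 9 of the 37 passed, against 16.9% of all probe sets: Ryr1, Cacna1s, Cacng1, Clcn1, Kcnj12, Kcnab1, Kcnma1 and Kcnd3 of the 11, and Cacna2d1. In the replicate 2 set the first 6 of these passed, against 12.2%.

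A test across all 5 muscles called 10 of the 37 genes, the 11 above without Kcnd3 (adjusted p = 0.0573), against 21.8% of all probe sets. Among the 4 limb muscles alone 2 of the 37 differed, Kcnab1 and Kcnma1, against 2.49% of all probe sets.

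Kcnab1, an auxiliary subunit that speeds the inactivation of voltage-gated potassium channels, was high in gastrocnemius. It had 2143, 1545, 1971 and 1294 on the transgenic and 2369, 1343, 2915 and 1297 on the wild-type gastrocnemius arrays. In plantaris it had 1008, 416 and 479 on the transgenic and 709, 297 and 763 on the wild-type arrays, 7 months replicates 1 and 2 before the single 10-month array. All 8 gastrocnemius arrays lay above all 28 others, a separation that held for 0.0643% of all probe sets. In the remaining limb muscles Kcnab1 had 352, 264 and 558 on transgenic and 718, 429 and 383 on wild-type arrays of extensor digitorum longus. In tibialis anterior it had 108, 132, 675 and 452 on transgenic and 205, 108, 436 and 187 on wild-type arrays.

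By mean over both genotypes the order for Kcnab1 was gastrocnemius with 1859 ± 594 (SD, n = 8), plantaris with 612 ± 262 (n = 6), extensor digitorum longus with 450.4 ± 163 (n = 6), tibialis anterior with 288 ± 209 (n = 8) and diaphragm with 166 ± 94.5 (n = 8). Only gastrocnemius was separate from its neighbour in this order, and the lower 4 overlapped. The test between limb muscles gave an adjusted p of 1.15e-06, with 0.00133 and 0.037 within the replicate 1 and replicate 2 sets. The second Kcnab1 probe set, with a lower signal, did not pass between limb muscles (adjusted p = 0.298) and averaged 282 ± 58.8 in gastrocnemius and 333 ± 42.0 in tibialis anterior.

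Kcnma1, the large-conductance channel opened by calcium and voltage together, had its highest mean in plantaris, with 3828, 2677 and 3055 on the transgenic and 3390, 2404 and 2516 on the wild-type arrays. Tibialis anterior had 1408, 1420, 1976 and 1185 on the transgenic and 1263, 946, 763 and 1381 on the wild-type arrays, all below the plantaris arrays. Means over both genotypes were 2978 ± 554 in plantaris, 2315 ± 1091 in extensor digitorum longus, 2079 ± 507 in gastrocnemius, 1293 ± 362 in tibialis anterior and 1018 ± 317 in diaphragm (SD), and neighbours in this order overlapped.

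The test between limb muscles gave an adjusted p of 0.0103 for Kcnma1, which was 0.0589 without the 10-month replicate 1 of transgenic plantaris and 0.0618 and 0.667 within the replicate 1 and replicate 2 sets. Summed nerve and Schwann cell markers ran from 8223 to 15796 on plantaris arrays, against 4407 to 10505 on the arrays of the other muscles, and the part of nerve in the Kcnma1 order was not tested. Cacng1 was highest in gastrocnemius with 12649 ± 2877 and lowest among limb muscles in plantaris with 7324 ± 801, without passing the limb test (adjusted p = 0.0725).

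The central question of the design is what the transgene does to these genes. Averaged over the 5 muscles, 0 of the 37 genes passed limma's adjusted p of 0.05, against 1.17% of all probe sets. At an unadjusted p under 0.05, 4 genes were higher in transgenic muscle (Kcnj12, Kcnn1, Kcnma1 and Kcna5), against 7.1% of all probe sets, and 7 were lower (Cacna1c, Cacnb2, Kcnk7, Kcnq1, Ryr3, Kcnk4 and Kcna3), against 10.2%. The median of the 37 log2 differences was -0.08, against -0.03 over all probe sets, and the differences ran from -0.59 to 0.42. With the replicate number as a block 4 passed (Cacna1c, Cacnb2, Kcnk7 and Kcnj12), against 6.37% of all probe sets. With the scan day as a block 7 passed (these 4 with Kcnn1, Kcnn4 and Kcnq1), against 10.4%. The 16 replicate 2 arrays have no scan day and formed a single level of that block, so it also holds the replicate number. With a random block for arrays that share genotype, age and replicate number, 0.214% of all probe sets passed.

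Cacna1c, the pore of the cardiac and smooth muscle calcium channel, had a median signal of 399 on the 18 transgenic arrays (lowest 185, highest 788), against 619 on the 18 wild-type arrays (lowest 308, highest 1055). Of the 18 transgenic arrays 17 lay below what wild type averaged in that muscle, and in extensor digitorum longus and plantaris the genotypes did not overlap. The difference was -0.49 ± 0.13 (adjusted p = 0.053), the smallest p of the 37. The adjusted p was 0.00865 with the replicate block, and leaving out single arrays gave 0.0187 to 0.096, below 0.05 for 8 of the 36 arrays. By muscle the estimates were -0.57 in diaphragm, -0.67 in extensor digitorum longus, -0.13 in gastrocnemius, -0.39 in plantaris and -0.70 in tibialis anterior.

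Cacnb2, which binds such pores and brings them to the membrane, had a median signal of 509 on the 18 transgenic arrays (lowest 138, highest 861), against 716 on the 18 wild-type arrays (lowest 346, highest 1111). Of the transgenic arrays 16 of 18 lay below the wild-type mean of their muscle, and the difference was -0.56 ± 0.17 (adjusted p = 0.103). It was -0.15 within the replicate 1 and -1.08 within the replicate 2 set. Smooth muscle markers, from cells that also use Cacna1c and Cacnb2, were higher for 0 and lower for 0 of 7 in the genotype average. Only 1.17% of all probe sets passed there, and the part of smooth muscle in the Cacna1c and Cacnb2 differences was not tested.

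Kcnk7, a relative of the background potassium channels that gives no current of its own in expression systems, had a median signal of 688 on the 18 transgenic arrays (lowest 224, highest 1255), against 1038 on the 18 wild-type arrays (lowest 428, highest 2113). The difference was -0.59 ± 0.19 (adjusted p = 0.115), with 16 of 18 transgenic arrays below the wild-type mean of their muscle. Kcnj12 had a median signal of 953 on the 18 transgenic arrays (lowest 348, highest 1634), against 667 on the 18 wild-type arrays (lowest 251, highest 1172). Its difference was 0.42 ± 0.13 (adjusted p = 0.103), with 16 of 18 transgenic arrays above the wild-type mean and no overlap in plantaris. Leaving out the 10-month replicate 1 of wild-type gastrocnemius gave an adjusted p of 0.0493 for Kcnj12, and leaving out the 10-month replicate 1 of wild-type tibialis anterior gave 0.0415 for Kcnk7.

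**Figure D4:**
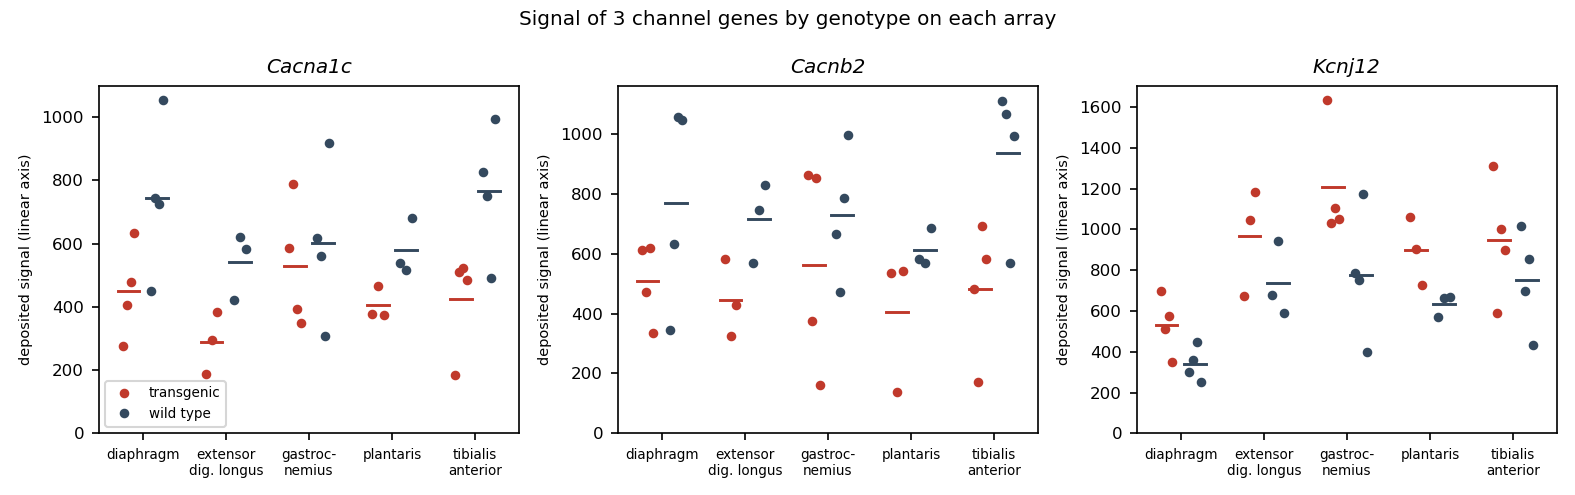
Deposited signal (linear axes from 0) of Cacna1c, Cacnb2 and Kcnj12 on each array by muscle, with transgenic arrays left and wild-type arrays right in each muscle; points are arrays and bars group means. The transgenic mean is lower in all 5 muscles for Cacna1c and Cacnb2 and higher in all 5 for Kcnj12, and 0 of the 3 passed the adjusted threshold.

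The other 7 genes had adjusted p-values of 0.14 and above. Kcna5 had 0.28 ± 0.10, Kcnn1 0.37 ± 0.18 and Kcnma1 0.31 ± 0.13, and each had 15 of 18 transgenic arrays above the mean that wild-type arrays had in the same muscle. Kcnq1 had -0.40 ± 0.18, Kcna3 -0.30 ± 0.14, Ryr3 -0.29 ± 0.12 and Kcnk4 -0.26 ± 0.12, each with 15 of 18 below it. The second probe sets of Kcnq1, Ryr3 and Kcna5 were too low to be tested. The coupling genes lay closer to 0, with 0.04 ± 0.10 for Ryr1, 0.18 ± 0.10 for Cacna1s, 0.18 ± 0.12 for Cacng1 and -0.05 ± 0.15 for Clcn1. For Ryr1 the 14 transgenic limb arrays averaged 62771 ± 9902 and the 14 wild-type limb arrays 66619 ± 12044 (SD). For Clcn1 they averaged 9217 ± 3005 and 9948 ± 2397, transgenic before wild type.

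Taken by muscle, 0 of the 37 genes passed in diaphragm (3.42% of all probe sets), extensor digitorum longus (0.0107%), gastrocnemius (0%), plantaris (0%) or tibialis anterior (0.15%), by limma's adjusted p. At an unadjusted p under 0.05 there were 9 in diaphragm against 12.6% of all probe sets, 4 in extensor digitorum longus against 6.44%, 1 in gastrocnemius against 2.24%, 0 in plantaris against 1.87% and 4 in tibialis anterior against 6.35%. The 9 in diaphragm were Cacna2d1, Kcnn1, Kcnd3, Cacna1s, Ryr1, Kcna5 and Clcn3, higher in transgenic arrays, and Clcn5 and Cacna1c, lower.

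Cacna2d1, the alpha2delta subunit, which binds gabapentin, had 3489, 1988, 1148 and 880.0 on the transgenic and 945, 714, 436 and 639 on the wild-type diaphragm arrays. The lowest transgenic array, at 10 months, lay between the 2 highest wild-type arrays. The difference was 1.14 ± 0.49 (adjusted p = 0.298), with 1.44 within the replicate 1 set (adjusted p = 0.00702) and 0.85 within the replicate 2 set (adjusted p = 0.875). Hepatocyte markers were lower for 10 of 13 in the same arrays, with a median of -2.90. With the hepatocyte covariate Cacna2d1 had 0.96 ± 0.71, Ryr1 0.27 ± 0.29 (0.52 without it) and Cacna1s 0.19 ± 0.29 (0.59 without it). Cacna1c had -0.19 ± 0.37 (-0.57 without it), Clcn3 0.164 (0.336) and Clcn5 -0.382 (-0.821). Kcnn1 had 0.905 (0.896), Kcnd3 0.859 (0.743) and Kcna5 0.521 (0.486), which were not smaller. The unadjusted p was above 0.05 for all 9 genes. The marker mean had a median of 10.58 on transgenic and 14.44 on wild-type diaphragm arrays, so the fit could only partly separate it from genotype. The rise of p does not show that the differences are absent, and the part of liver RNA was not tested.

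In tibialis anterior the 4 genes were Cacna1c, Cacnb2, Kcnk7 and Kcnd3, all lower in transgenic arrays. Kcnd3 had 1296, 542, 292 and 248 on the transgenic and 802, 2127, 1101 and 879.6 on the wild-type arrays of this muscle. The estimate was -0.996 ± 0.36 in tibialis anterior, -0.98 ± 0.42 in extensor digitorum longus and 0.74 ± 0.36 in diaphragm. The test of a difference of the genotype effect between muscles called 0 of the 37 genes, against 0.0322% of all probe sets, and 1 at an unadjusted p under 0.05, Kcnd3 (adjusted p = 0.785), against 4.01%.

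**Figure D5:**
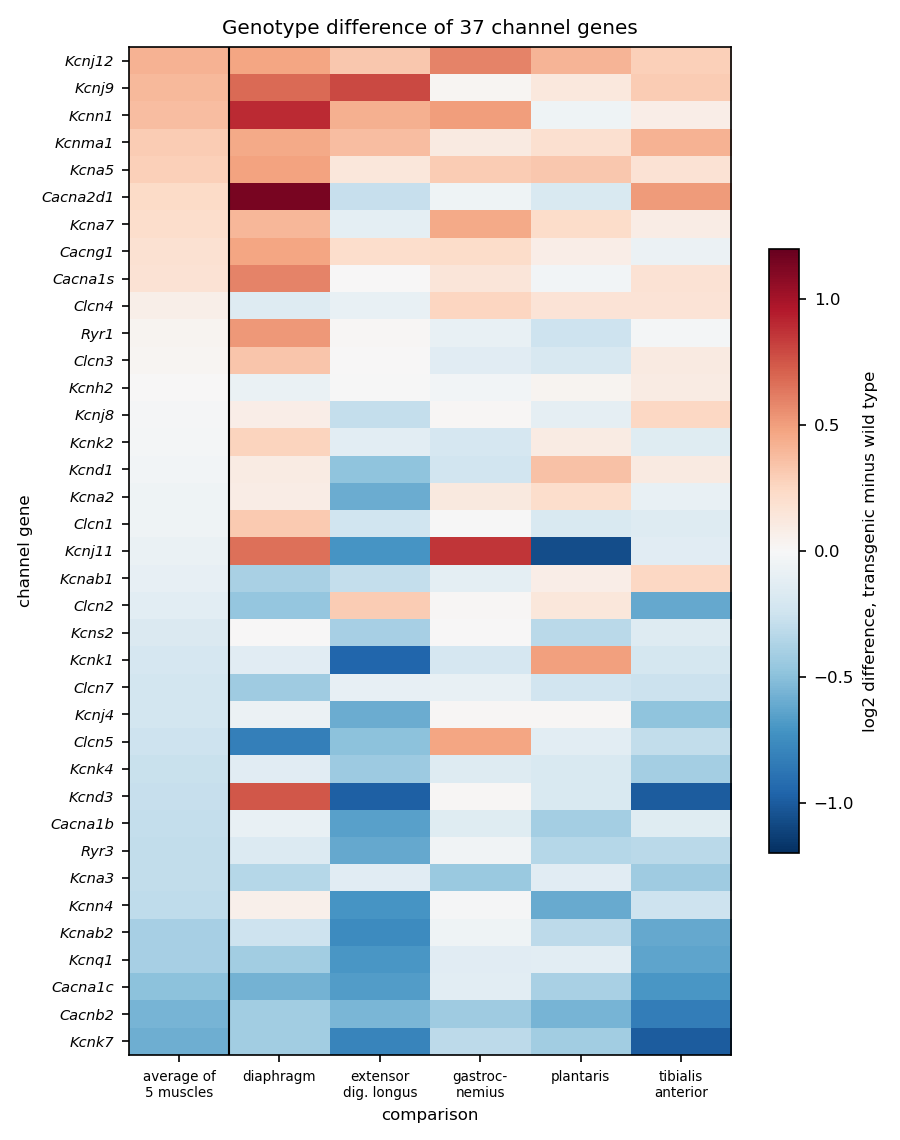
Log2 difference of transgenic minus wild-type arrays for the 37 channel genes (rows, ordered by the average) in the average of 5 muscles and in each muscle (columns), with red higher and blue lower in transgenic arrays. The averages run from 0.42 for Kcnj12 to -0.59 for Kcnk7, and 0 of the values passed the adjusted threshold.

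Between 10 and 7 months, averaged over muscles and both genotypes, 0 of the 37 genes passed limma's adjusted p, against 0% of all probe sets. At an unadjusted p under 0.05 there were 2, Kcnk2 and Kcna3, against 8.31%. Kcnk2, a background channel opened by stretch, averaged 677 ± 182 on the 16 arrays of 10 months and 542 ± 104 on the 20 of 7 months (SD), a log2 difference of 0.27 ± 0.11 (adjusted p = 0.542). Kcna3, a channel best known from lymphocytes, averaged 357 ± 155 at 10 months and 263 ± 116 at 7 months, a difference of 0.34 ± 0.15 (adjusted p = 0.551).

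Genes that work beside the channels were read from a list of 46, of which 30 were tested. In diaphragm against limb muscles 13 were lower and 4 higher, with a median of -0.25, against 12.7% lower, 12.4% higher and a median of -0.05 over all probe sets. On transgenic arrays only, 3 were lower (Ank1, Casq1 and Pvalb) and 2 higher (Atp2a2 and S100a1), against 3.24 and 4.92% of all probe sets. On wild-type arrays only, 11 were lower and 3 higher, against 10.7 and 10.1%, and with the hepatocyte covariate 0 were lower and 0 higher, against 0.236 and 0.386%. The covariate fit has the limit given above, that the marker mean does not overlap between diaphragm and limb arrays. The values that follow are those of all arrays. Of the acetylcholine receptor and synapse genes 2 of 10 were lower, the receptor subunits Chrna1 (-0.57 ± 0.13) and Chrnb1 (-0.53 ± 0.15), and 0 higher. Of the sodium pump genes Atp1b2, a beta subunit (-1.10 ± 0.38), and Fxyd1, a pump regulator (-0.31 ± 0.09), were lower and Fxyd5, another regulator (0.83 ± 0.17), higher, of 4 tested. Of 12 tested genes of the calcium store, 7 were lower: Pvalb, a calcium buffer of fast fibres (-1.10 ± 0.11), Casq1, the calcium binder of the fast store (-1.03 ± 0.11), Sypl2, a protein of the triad (-0.73 ± 0.13), Hrc, a calcium binder of the store (-0.55 ± 0.14), Stim1, the sensor of store filling (-0.53 ± 0.13), Atp2a1, the fast calcium pump (-0.43 ± 0.13), and Fkbp1a, which binds the release channel (-0.30 ± 0.10). Atp2a2, the slow pump (1.02 ± 0.16), S100a1, a calcium sensor (0.75 ± 0.16), and Casq2, the calcium binder of slow and cardiac muscle (0.64 ± 0.18) were higher. The anchors Ank1 (-1.46 ± 0.15) and Ank3 (-0.52 ± 0.09) were lower, of 4 membrane scaffold genes tested.

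In transgenic against wild-type arrays, averaged over muscles, 2 of these 30 genes were higher and 0 lower, where 1.17% of all probe sets passed. The fit with the random block, in which 0.214% of all probe sets passed, is not given for these 2. Atp2a2 averaged 14377 ± 8551 in transgenic and 10202 ± 7053 in wild-type arrays, a log2 difference of 0.74 ± 0.13 (adjusted p = 0.00152). Ank3, which anchors sodium channels and pumps at the membrane, averaged 4424 ± 792 in transgenic and 3417 ± 875 in wild-type arrays, a difference of 0.38 ± 0.08 (adjusted p = 0.00786). In diaphragm alone 1 of the 30 passed, against 3.42% of all probe sets. This was Ank3, with 3694 ± 594 on transgenic and 2291 ± 441 on wild-type arrays (SD, n = 4 each; 0.66 ± 0.16, adjusted p = 0.0184). With the hepatocyte covariate Ank3 had 0.52 ± 0.23 in limma (unadjusted p = 0.033) and did not pass the adjusted threshold. In that fit 0.0107% of all probe sets passed. Slow fibre markers, which include Atp2a2, were higher for 5 of 9 in the average over muscles, with a summed signal of 57553 to 554221 on transgenic and 15392 to 460487 on wild-type arrays, and their part in these 2 differences was not tested. Between 10 and 7 months 0 of the 30 passed.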

How the data were processed

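Signal was measured on 36 Affymetrix MG_U74Av2 arrays, each hybridised with RNA from a pool of mice. The deposited intensity values were made by the authors with MAS5 and scaled to a common level, per the submitters' processing notes and the values themselves; the version is not given in the sources used here. Array precision is limited by the number of arrays. Of 12488 probe sets 66 controls were left out, and the 9326 with a signal of at least 300 on at least 6 arrays were tested on log2(signal + 150) with limma 3.58.1 in R 4.3.3 (statmod 1.5.0), with a mean for each muscle and genotype, an age effect in each muscle and an intensity trend. Fold changes are on that scale, which understates changes of low genes. Adjusted p-values are Benjamini-Hochberg over all probe sets tested, two-sided, with 0.05 as the threshold. The fit was tested on simulated data with independent noise on each array. That setting lacks the deviations shared by arrays of one replicate number, described below, so it does not vouch for the p-values here.

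Genes were named by rule: all 37 by mean and range, and partner genes from a list where past the threshold. Channel genes past a threshold are also given by median and range in diaphragm and limb muscles, and some of them array by array. Probe sets were named through the platform annotation, 10833 of them with a single symbol, 396 with several and 1193 with none. The members and lists were chosen with earlier results of these data known. Promoter sequences are from RefSeq. Alternatives changed the pseudocount, filter, normalization, model terms, arrays and probe sets.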

Additional observations from a re-analysis of the deposited data

Results flagged for a closer look

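In groups of 4 arrays 1 value stood apart from the other 3 by Dixon's ratio in 4 of 66 groups examined, where chance alone flags about 1 group in 20. Clcn1 had 6748 on the 7-month replicate 1 array of transgenic gastrocnemius, against 10775 to 11516 on the other transgenic arrays of that muscle. Clcn1 had 7075 on the 7-month replicate 1 array of transgenic tibialis anterior, against 8822 to 9229 on the others. Kcnj12 had 1634 on the 7-month replicate 1 array of transgenic gastrocnemius, the array of the first Clcn1 value, against 1033 to 1104 on the others. Kcnd1 had 497 on the 7-month replicate 1 array of wild-type diaphragm, against 77.2 to 103 on the other wild-type diaphragm arrays.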

How the results depend on the processing

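Counts of the 37 genes past the threshold moved by over 1.5 times as follows. For the genotype averaged over muscles, where 0 passed, 3 did with array weights, 1 with a filter of 300 on 18 arrays (Cacna1c), 1 with no intensity trend (Cacna1c), 4 with the replicate number as a block and 7 with scan day as a block, where 4.79, 1.42, 1.14, 6.37 and 10.4% of all probe sets passed, and 0 to 2 when single arrays were left out. The arrays that gave Cacna1c a call when left out were, in diaphragm, transgenic 7 and 10 months replicate 2 and wild type 7 and 10 months replicate 1; in gastrocnemius, transgenic 7 months replicate 2 and wild type 10 months replicate 1; and the same pair in tibialis anterior. For the genotype in diaphragm, where 0 passed, 2 did with array weights, 1 with the replicate block (Cacna2d1) and 1 within the replicate 1 arrays, where 6.8, 5.75 and 3.25% of all probe sets passed. Between the 5 muscles, where 10 passed, 3 did with the hepatocyte covariate and 4 within the replicate 2 arrays, and 9 to 11 without single arrays; the call of Kcnd1 ended (adjusted p 0.05 to 0.0611) without any of 4 diaphragm arrays, transgenic 7 months replicate 2 and 10 months replicate 1 and wild type 7 and 10 months replicate 2. For diaphragm against limb muscles, where 11 passed, 0 did with the hepatocyte covariate, 6 within the replicate 2 arrays, 5 on transgenic arrays and 2 on transgenic arrays without high hepatocyte signal, and 9 to 12 without single arrays. Between limb muscles, where 2 passed, 1 did within each replicate set, and 1 to 3 without single arrays. For age 1 passed within the replicate 1 arrays, against 0. The sign turned for Kcna7 with the hepatocyte covariate (0.233) and for Kcnd3 on transgenic arrays without high hepatocyte signal (0.0412). The cause of these shifts was not tested. The genotype counts in the 4 limb muscles and the count for the difference between muscles were 0 under all alternatives run. Differences of replicate 1 minus replicate 2 were correlated between the 16 groups with 2 arrays, over 0.1 in 117 of 120 pairs of groups (lowest 0.00667, median 0.325). No pair was below 0, so arrays of one number shared deviations across groups. The labels do not say what a number marks, and the fit without the block stayed the main one. The count of 0 for the averaged genotype depends on that choice, since the replicate block called 4 (Cacna1c, Cacnb2, Kcnj12 and Kcnk7). With scan day as a block, where the replicate 2 arrays formed a single level, muscle and age differences could not be estimated. Nor could age within the replicate 2 arrays, nor most diaphragm differences with the 5 diaphragm arrays of high hepatocyte signal left out. The 2 sets of arrays by genotype and the sets by hepatocyte signal were chosen after seeing the data.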
